A study of Mus musculus with 10 samples.

Results

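The genes described here drive the mechanical part of cell division: the mitotic kinesins, the proteins that build and anchor the spindle, and the proteins that part the chromosomes and the daughter cells. They were chosen by symbol, as 42 genes among the 54446 gene identifiers counted in each library, and fall into 5 roles: 13 motors, 6 genes of the midzone and cytokinesis, 13 spindle and microtubule genes, 3 centrosome genes, and 7 genes of chromosome separation and proliferation. Of the 42, 40 passed a filter on low counts and were tested, while Kif18b and Prc1 were listed at 0 counts in all 10 libraries. The libraries hold polyadenylated RNA of flash-frozen tumours of TH-MYCN mice, a strain in which a tyrosine hydroxylase promoter drives a human MYCN transgene in the sympathetic lineage and neuroblastoma forms there. Treated mice received MLN8237 (alisertib), an Aurora-A inhibitor, together with AZD6738 (ceralasertib), an inhibitor of ATR, the kinase that answers stalled replication. Tumours treated for 24 h gave 3 libraries (numbered 2, 3 and 4 in the labels), tumours treated for 5 days gave 4 (numbered 1 to 4), and tumours of untreated mice of the same strain gave 3 (numbered 1 to 3). Sample titles name a combination, although in the design text an "or" stands between the drugs. The labels do not state that each library is a different mouse, and the p-values therefore describe the spread among these libraries, which may be technical.

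Kinesins are motor proteins that walk along microtubules or take them apart at their ends. In mitosis, plus-end motors push the spindle poles apart, minus-end motors and NuMA focus the poles, depolymerising kinesins correct faulty attachments, and the centralspindlin motor bundles the midzone at which RhoA signalling places the cleavage furrow. Aurora-A acts at the spindle poles and phosphorylates spindle proteins such as TACC3, and many of these genes are transcribed mainly in G2 and mitosis, through promoter elements called CHR (cell cycle genes homology region) and CCAAT box.

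The start regions of these genes share such elements, which the choice of the genes did not use. Windows of 300 bases, from 250 before to 50 after the RefSeq gene start (build GRCm38.p6), were at hand for 38 of the 42 genes, as 40 windows. None was matched for Kif20a, Dlgap5, Cep192 and Cdca2. The CHR letters TTTGAA, searched on both strands, were found in 28 of the 40 windows (70.0%), against 12.3% of the 13174 windows of tested genes and 17.9% of all 32851 windows. Within 50 bases of the start they were found in 23 windows (57.5%), against 3.2% of the windows of tested genes. The variant letters TTTAAA, a palindrome, were found in 15%, against 9.34%. The CCAAT letters were found in 67.5%, against 37.6%, and a CCAAT match together with either CHR form in 60%, against 7.75%. A match of letters describes the window and does not show binding.

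The windows of 5 genes are printed because they bracket the values described further on. Troap, Kif23 and Kif18a had the highest log2 fold changes at 24 h among the genes with a single window, and Top2a and Kif24 had the lowest. They lie at chr15:99074723-99075022, plus strand (Troap), chr9:61946750-61947049, minus strand (Kif23), chr2:109280488-109280787, plus strand (Kif18a), chr11:99024140-99024439, minus strand (Top2a) and chr4:41464799-41465098, minus strand (Kif24), and run in the direction of the gene. Capitals mark TTTGAA or its reverse complement TTCAAA, and CCAAT or its reverse complement ATTGG.
Troap: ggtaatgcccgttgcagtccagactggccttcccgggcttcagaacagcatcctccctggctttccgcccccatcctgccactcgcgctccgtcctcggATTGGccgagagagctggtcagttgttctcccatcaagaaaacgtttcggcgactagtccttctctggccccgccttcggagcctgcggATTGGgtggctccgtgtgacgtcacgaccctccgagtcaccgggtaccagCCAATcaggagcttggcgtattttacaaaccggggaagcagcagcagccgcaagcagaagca
Kif23: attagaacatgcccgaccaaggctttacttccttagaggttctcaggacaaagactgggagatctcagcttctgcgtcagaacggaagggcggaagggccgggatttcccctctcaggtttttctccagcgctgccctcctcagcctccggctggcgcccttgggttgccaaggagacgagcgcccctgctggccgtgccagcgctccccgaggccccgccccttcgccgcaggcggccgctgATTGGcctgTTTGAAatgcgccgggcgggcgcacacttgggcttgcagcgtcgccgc
Kif18a: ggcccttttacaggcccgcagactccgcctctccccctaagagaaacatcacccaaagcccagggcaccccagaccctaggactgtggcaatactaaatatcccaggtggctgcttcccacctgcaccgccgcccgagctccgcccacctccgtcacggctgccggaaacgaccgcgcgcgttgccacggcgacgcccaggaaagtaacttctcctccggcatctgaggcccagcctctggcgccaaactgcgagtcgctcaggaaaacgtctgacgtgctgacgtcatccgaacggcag
Top2a: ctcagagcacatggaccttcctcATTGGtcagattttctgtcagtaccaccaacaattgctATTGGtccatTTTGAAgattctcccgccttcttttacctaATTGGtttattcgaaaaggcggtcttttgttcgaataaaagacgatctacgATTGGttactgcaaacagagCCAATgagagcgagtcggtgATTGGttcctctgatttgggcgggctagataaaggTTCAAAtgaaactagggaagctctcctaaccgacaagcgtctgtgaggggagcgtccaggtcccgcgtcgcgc
Kif24: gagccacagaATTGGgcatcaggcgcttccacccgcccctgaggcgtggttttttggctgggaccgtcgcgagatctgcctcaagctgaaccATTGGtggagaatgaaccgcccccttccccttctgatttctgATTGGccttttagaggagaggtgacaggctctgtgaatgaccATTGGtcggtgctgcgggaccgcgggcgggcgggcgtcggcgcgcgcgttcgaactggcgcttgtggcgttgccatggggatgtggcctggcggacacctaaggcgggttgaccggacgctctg
Kif23 had a CCAAT match 7 bases before the start and a TTTGAA match shortly after it. Top2a, whose level at 24 h was that of untreated tumours, had 2 TTTGAA and 6 CCAAT matches, and Kif18a, which was higher at 24 h in every library, had none of either. The median log2 fold change at 24 h was 0.316 over the 25 tested genes with a CHR form in their window and 0.286 over the 11 without one.

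**Figure D1:**
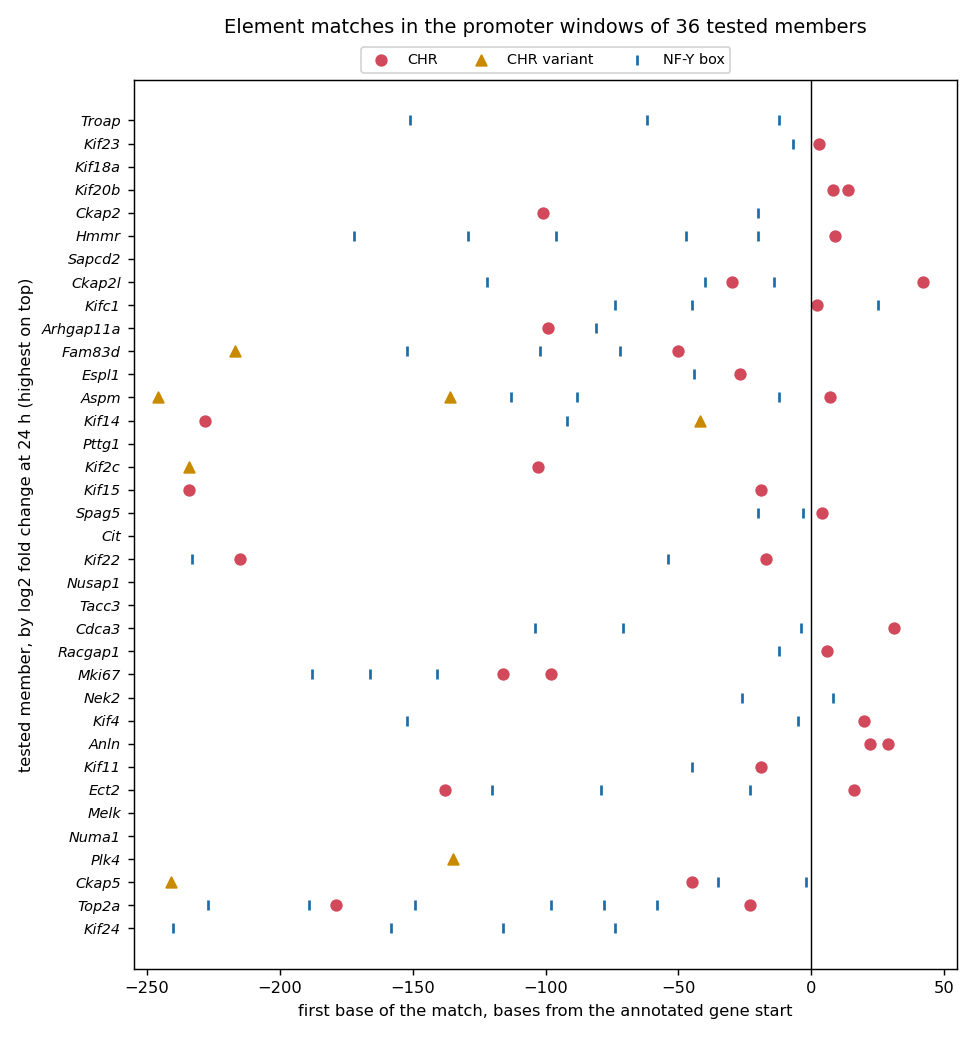
Position of each element match (first base, in bases from the annotated gene start, x axis) in the promoter windows of 36 tested genes (rows, ordered by log2 fold change at 24 h, highest on top); circles are TTTGAA, triangles TTTAAA and ticks CCAAT, on either strand. Circles gather around the start, where 23 of the 40 windows of the whole set hold one within 50 bases, and they occur at the top and at the bottom of the order.

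Each library held 5576926 to 5696436 counts, a range of 2.1%, at which 3 counts correspond to 0.516 to 0.655 CPM, the read count normalised to the TMM-scaled library size and used from here on. Of all libraries, 5-day library 1 stood apart: its Spearman correlation with the other libraries, taken across genes, averaged 0.74, against averages of 0.944 to 0.954 for the remaining 9. Its 18 markers of adrenergic neuroblastoma, none of which was at 0 in all libraries, summed to 917 CPM, against 2598 to 3404 CPM in 5-day libraries 2 to 4. Its macrophage, fibroblast and adipocyte markers summed to 14957, 18091 and 8705 CPM, against at most 1763, 2334 and 1305 CPM in those 3 libraries. The main results that rest on this library are therefore given with and without it. The sum of adrenal cortex markers reached 1625 CPM in 5-day library 2 and that of skeletal muscle markers 522 CPM, where untreated tumours held at most 14.8 and 6.27 CPM. Other sums were uneven among untreated tumours: libraries 1, 2 and 3 held 1107, 984 and 2770.5 CPM for fibroblasts. For adipocytes they held 50.1, 105 and 793 CPM, and for hepatocytes 6.83, 54.7 and 482 CPM. Untreated library 3, the highest in each, had the lowest sum of the 42 genes in its group, 5821 CPM. A link was not tested. The hepatocyte value was highest in 5-day library 1, at 2916 CPM.

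The first question is how these genes stood 24 h after treatment, against untreated tumours. As a set they were modestly higher: their summed level was 7990, 6671 and 7854 CPM in the 24 h libraries, against 6190, 6656 and 5821 CPM in the untreated ones. The lowest 24 h library lay just above the highest untreated one. The median log2 fold change of the 40 tested genes was 0.30, with a range of -0.37 (Kif24) to 0.64 (Troap), while that of all 14956 tested genes was -0.01. For 22 of the 40 (55%), all 24 h libraries lay above all untreated ones, against 7.11% of all tested genes, and 0 lay below (6.69% of all tested genes). Over all 10 libraries, however, the quasi-likelihood test of edgeR, adjusted by the Benjamini-Hochberg method, called 0 genes at 24 h (0% of all tested genes), and 0 of the 40. At an unadjusted p under 0.05 it found 263 genes (1.76%), and 0 of the 40, while DESeq2 called 0 genes and limma voom with library weights 3. In the edgeR fit of all 10 libraries, all of the 40 had an adjusted p of 0.9997. In bulk tumour RNA, a larger share of cells in mitosis and more RNA of these genes per cell cannot be told apart.

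The spread shared by all groups was set largely by 1 library. Without 5-day library 1 the biological coefficient of variation was 18.9%, against 40.8% with it, and 14699 genes were tested. The unadjusted p at 24 h was then under 0.05, with a higher level, for 26 of the 40 genes (65%), against 4.56% of all tested genes, and with a lower level for 0 of the 40, against 3.54%. The test still called 0 of the 40 after adjustment, and 2 genes in all (0.0136%), Cep55 and Pif1. Of these, Pif1 lies outside the naming rule and was named after its values were seen. Cdca2 came closest among the 40, with an adjusted p of 0.111.

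**Figure D2:**
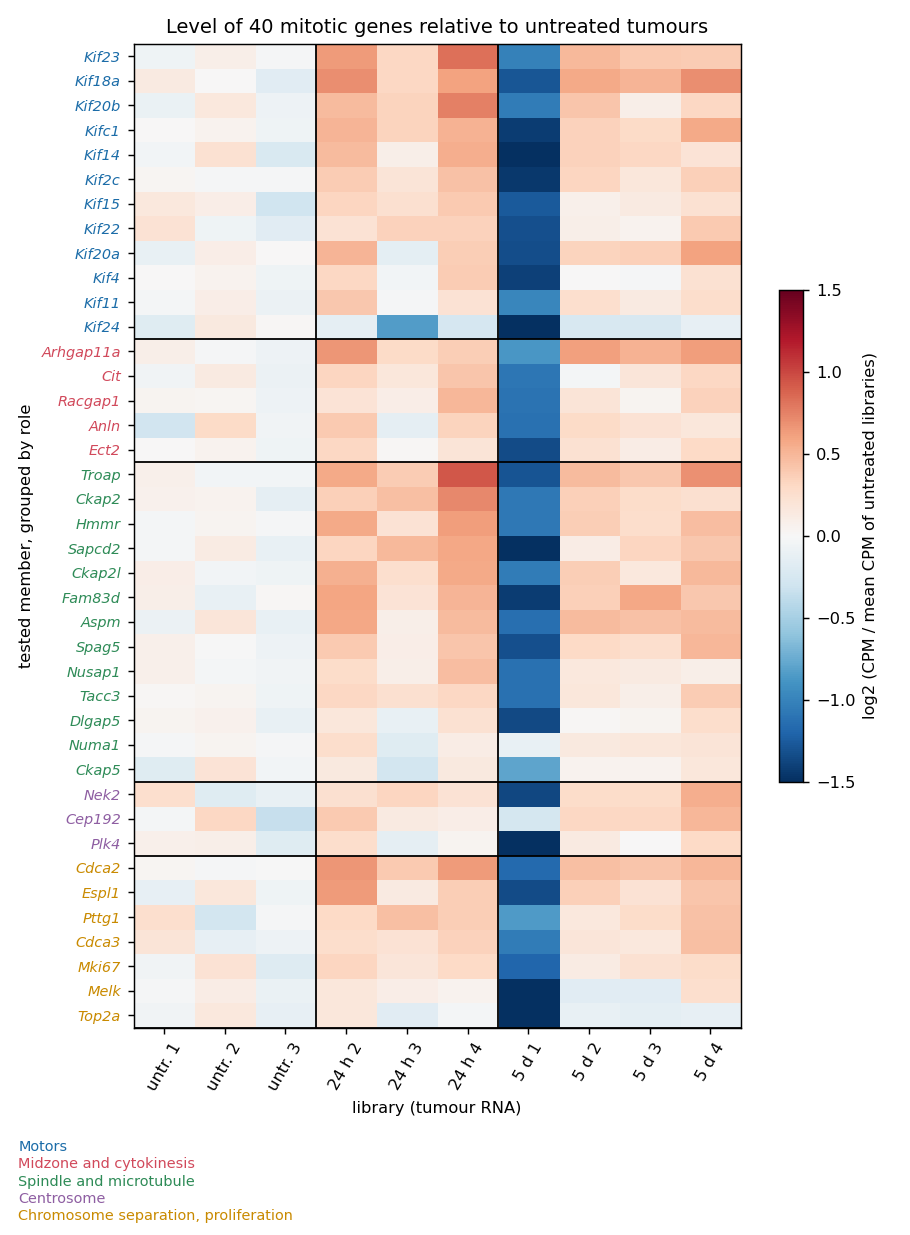
Level of each of the 40 tested genes (rows, grouped by role) in each library (columns) as log2 of its CPM over the mean CPM of the untreated libraries; colours saturate at -1.5 and 1.5. The 24 h columns and the columns of 5-day libraries 2 to 4 are mostly above 0 (red), 24 h library 3 is paler than its neighbours, and the column of 5-day library 1 is below 0 (blue) throughout.

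Among the motors, 7 of 12 tested had every 24 h library above every untreated one (58.3%, against 7.11% of all tested genes, the background for the other roles as well), and the 12 had a median log2 fold change of 0.33. Kif23, the motor subunit of centralspindlin, which bundles midzone microtubules (ENSMUSG00000032254, chromosome 9, 61915905 to 61946774, minus strand of mm10), was at 179, 142 and 204 CPM at 24 h, against 110.0, 122 and 113 CPM in untreated tumours. All 3 of its 24 h libraries were above all untreated ones, with a log2 fold change of 0.61 ± 0.33 (SE) over all 10 libraries and 0.61 ± 0.12 without 5-day library 1 (edgeR, adjusted p = 0.185). Kif20b, another motor of late cytokinesis, was at 168, 152 and 204 CPM, against 113, 134 and 115 CPM. Its groups did not overlap, and its log2 fold change was 0.53 ± 0.32 (SE) over all 10 libraries and 0.54 ± 0.13 without 5-day library 1. Kifc1, a minus-end motor that focuses spindle poles and clusters extra centrosomes (chromosome 17, 33875659 to 33890661, minus strand), was at 233, 206 and 236 CPM, against 165, 171 and 156 CPM. It too was higher in 3 of 3 libraries, with a log2 fold change of 0.45 ± 0.40 (SE) over all libraries and 0.46 ± 0.09 without 5-day library 1 (edgeR, adjusted p = 0.221).

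Kif2c, the depolymerising kinesin MCAK that frees wrongly attached microtubules, was at 200.2, 176 and 208 CPM at 24 h, against 157, 152 and 152 CPM in untreated tumours, again with no overlap. Kif11, the motor Eg5 that pushes the poles apart and the target of the first spindle motor inhibitors, was at 299.7, 224 and 265 CPM, against 223, 244 and 214 CPM. Here 24 h library 3 lay among the untreated libraries and the other 24 h libraries above them. Kif24 went the other way. This kinesin, known for its part in keeping centrioles from growing cilia, was at 22.3, 13.6 and 20.6 CPM, against 21.5, 26.9 and 24.7 CPM, and its groups overlapped. Its log2 fold change was -0.37 ± 0.35 (SE) over all libraries, the only negative one of the 12 motors. Without 5-day library 1 it was -0.37 ± 0.18 (edgeR, adjusted p = 0.635).

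**Figure D3:**
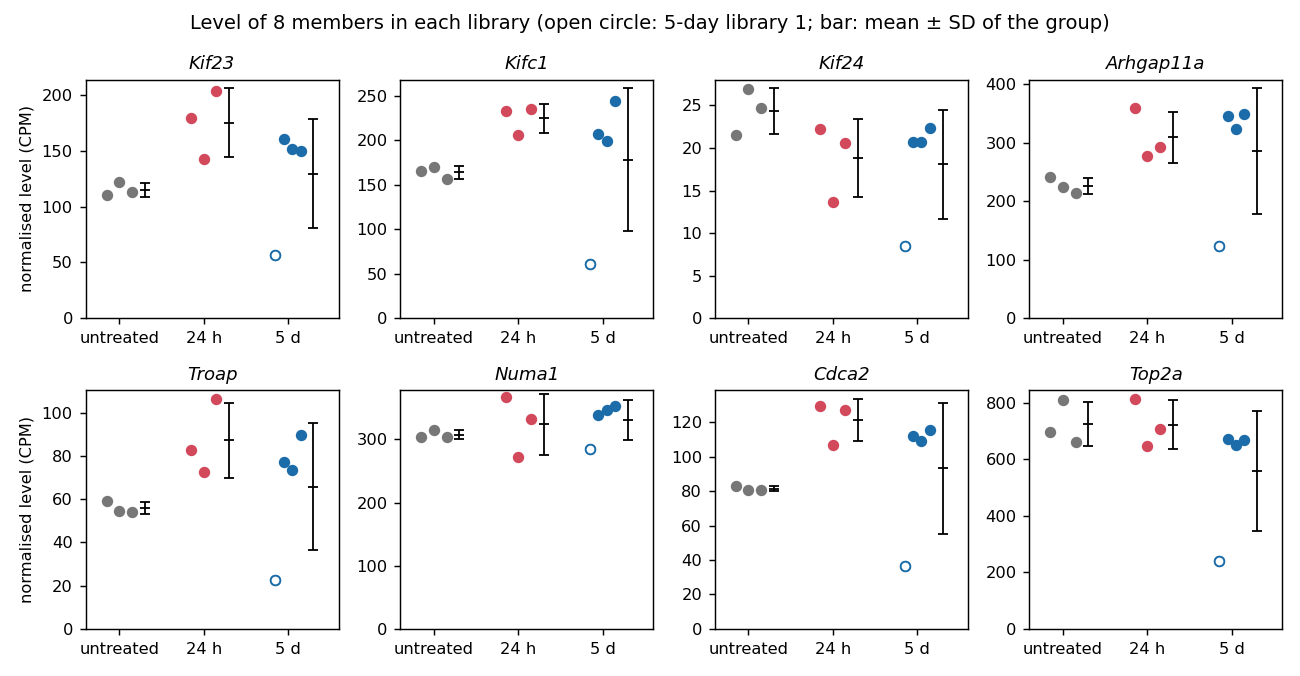
Level (CPM of the scaled library size, y axis from 0) of 8 genes in each library of untreated, 24 h and 5-day tumours; filled points are libraries, the open circle is 5-day library 1 and bars are the mean ± SD of all libraries of a group. Kif23, Kifc1, Arhgap11a, Troap and Cdca2 at 24 h lie above all untreated libraries, Numa1 and Top2a overlap them, and Kif24 lies below them in 2 of 3 libraries.

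In the midzone and cytokinesis group, 3 of 5 tested genes had no overlap at 24 h (60%, against 7.11% of all tested genes), and the median log2 fold change was 0.28. Arhgap11a, a GTPase-activating protein that restricts RhoA at the cell cortex (ENSMUSG00000041219, chromosome 2, 113831492 to 113848661, minus strand), was at 359, 277 and 293 CPM at 24 h, against 241, 224 and 214 CPM in untreated tumours. Its log2 fold change was 0.45 ± 0.33 (SE) over all libraries and 0.46 ± 0.10 without 5-day library 1 (edgeR, adjusted p = 0.253), with 3 of 3 libraries higher. Racgap1, the partner of Kif23 in centralspindlin, was at 251, 234.2 and 309 CPM, against 224, 223 and 207 CPM, and its groups did not overlap. Cit, the citron kinase of the midbody, was at 70.3, 63.0 and 75.1 CPM, against 54.1, 61.6 and 53.0 CPM, also without overlap. Ect2, the exchange factor that centralspindlin recruits to activate RhoA, was at 191, 156 and 176 CPM, against 155, 159 and 148 CPM. Only 24 h library 3 of Ect2 fell within the untreated range.

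The spindle and microtubule genes held the largest share without overlap at 24 h, 9 of 13 (69.2%, against 7.11% of all tested genes), and their median log2 fold change was 0.40. Troap, a microtubule-binding protein needed for spindle integrity (ENSMUSG00000032783, chromosome 15, 99074575 to 99083409, plus strand), was at 82.9, 72.5 and 106 CPM at 24 h, against 59.0, 54.3 and 54.2 CPM in untreated tumours. Its log2 fold change was 0.64 ± 0.41 (SE) over all libraries and 0.65 ± 0.14 without 5-day library 1 (edgeR, adjusted p = 0.227), with 3 of 3 libraries higher. Hmmr, a microtubule-binding receptor of hyaluronan that positions the spindle, was at 231, 182 and 242 CPM, against 153, 161 and 155 CPM. Ckap2, which promotes microtubule nucleation, was at 93.2, 99.5 and 120.0 CPM, against 76.2, 75.4 and 66.4 CPM. Neither gene's groups overlapped, and the log2 fold changes over all libraries were 0.48 ± 0.33 (SE) for Hmmr and 0.52 ± 0.31 (SE) for Ckap2. Without 5-day library 1 they were 0.49 ± 0.11 for Hmmr and 0.53 ± 0.11 for Ckap2.

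Tacc3 and Ckap5, which bind each other on spindle microtubules with Tacc3 placed there by Aurora-A, differed from each other. Tacc3 was at 231, 221 and 231 CPM at 24 h, against 189.6, 192 and 179 CPM in untreated tumours, a separation of the groups with a narrow spread. Ckap5, a microtubule polymerase, was at 298, 223 and 299 CPM, against 238, 311 and 262 CPM, with full overlap. Numa1, which anchors dynein at the poles, was at 368, 272 and 332 CPM, against 303, 315 and 304 CPM, so that 24 h library 3 was the lowest and 24 h library 2 the highest of the 6. Whether Tacc3 and Ckap5 differ in response was not tested.

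The 3 centrosome genes overlapped at 24 h in every case. Cep192, the scaffold that recruits and activates Aurora-A and Plk4 at the centrosome, was at 106, 88.2 and 86.1 CPM at 24 h, against 78.8, 99.5 and 63.1 CPM in untreated tumours. Nek2, the kinase that loosens the link between centrosomes, was at 114, 120.2 and 112 CPM, against 115, 85.2 and 89.2 CPM. Plk4, the kinase that starts centriole duplication, was at 129, 97.3 and 110.5 CPM, against 113, 114 and 94.1 CPM. In each of the 3, at least 1 untreated library lay above the lowest 24 h library.

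Of the 7 genes of chromosome separation and proliferation, 3 had no overlap at 24 h (42.9%, against 7.11% of all tested genes). Cdca2, which brings protein phosphatase 1 to chromosomes in anaphase (ENSMUSG00000048922, chromosome 14, 67676331 to 67715841, minus strand), was at 129, 107 and 127 CPM at 24 h, against 83.2, 80.3 and 80.8 CPM in untreated tumours. The untreated libraries were close together, and the log2 fold change was 0.57 ± 0.36 (SE) over all libraries and 0.58 ± 0.09 without 5-day library 1, with 3 of 3 libraries higher. Pttg1, the securin that holds separase inactive, was at 52.5, 58.2 and 54.7 CPM, against 50.4, 35.1 and 41.99 CPM, without overlap. Espl1, separase itself, was at 287, 203 and 238 CPM, against 168, 208 and 176 CPM. Its 24 h library 3 lay below untreated library 2 and the other 24 h libraries above it.

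Mki67 and Top2a are the usual proliferation markers, and both overlapped the untreated range at 24 h. Mki67, which coats mitotic chromosomes, was at 977, 891 and 967 CPM at 24 h, against 755, 910.4 and 688 CPM in untreated tumours, where untreated library 2 lay above 24 h library 3. Top2a, the topoisomerase that untangles sister chromatids, was at 815, 646 and 709 CPM, against 698, 811 and 662 CPM. The Top2a group means were 723 ± 85.5 CPM at 24 h and 724 ± 77.3 CPM in untreated tumours (SD, n = 3 each), so its difference was far within the spread. Melk and Dlgap5, named after their values were seen, also overlapped, at 109.6 ± 4.46 and 127 ± 15.4 CPM at 24 h, against 101 ± 7.48 and 118 ± 7.95 CPM in untreated tumours (SD, n = 3 each).

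The remaining genes, outside the naming rule, are given by their group means at 24 h and in untreated tumours (SD, n = 3 each). Kif18a averaged 74.0 ± 10.04 CPM at 24 h and 50.6 ± 5.29 CPM in untreated tumours. Kif15, which backs up Kif11 in keeping the spindle bipolar, averaged 139.6 ± 7.51 and 112 ± 18.2 CPM. Kif22, a motor that pushes chromosome arms outward, averaged 119.7 ± 6.02 and 97.1 ± 13.8 CPM. The groups of these 3 did not overlap, while those of the other 3 motors did. Kif4, a chromosome-bound motor that also sets midzone length, averaged 106 ± 16.1 CPM at 24 h and 90.8 ± 3.59 CPM in untreated tumours. Kif14, which brings citron kinase to the midbody, averaged 82.4 ± 13.5 and 63.3 ± 10.03 CPM. Kif20a, the partner of the Aurora-B complex at the midzone, averaged 168 ± 38.2 and 139.5 ± 10.3 CPM. In each of them 24 h library 3 was the lowest of the 24 h libraries.

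Anln, the anillin scaffold of the contractile ring, averaged 148 ± 28.1 CPM at 24 h and 128 ± 25.9 CPM in untreated tumours, with overlap. Spindle genes without overlap were Nusap1, a microtubule cross-linker near chromosomes, at 122 ± 16.2 and 99.9 ± 4.78 CPM, and Spag5, the kinetochore and spindle protein astrin, at 182 ± 21.7 and 147 ± 7.43 CPM. Ckap2l, a relative of Ckap2, averaged 138 ± 16.1 and 101 ± 6.33 CPM, again without overlap. The same held for Fam83d, which brings a kinase to the spindle, and for Sapcd2. Fam83d averaged 69.7 ± 9.51 CPM at 24 h and 51.1 ± 3.52 CPM in untreated tumours. Sapcd2 averaged 108 ± 9.74 and 78.3 ± 6.37 CPM. Aspm, which focuses the poles and is mutated in hereditary microcephaly in humans, averaged 156 ± 26.5 and 119 ± 13.4 CPM, with overlap. Cdca3, a gene of mitotic entry, averaged 140.4 ± 6.56 and 116 ± 14.1 CPM, without overlap.

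The 24 h libraries were not equal among themselves. Library 3 was the lowest of the 3 for 33 of the 40 genes (82.5%), against 32.3% of all tested genes, and the highest for 2. Libraries 2 and 4 were the highest for 17 and 21. Without 24 h library 3, 33 genes had their remaining 24 h libraries above all untreated ones, and without untreated library 2 the number was 30. Leaving out a library can only keep or raise this number, and its share over all tested genes was not computed. Markers of some other cells differed in this comparison as well. The sum of macrophage markers was 1367 to 1690 CPM at 24 h, against 643 to 1120 CPM in untreated tumours. Of 16 markers, 6 lay above all untreated libraries (against 7.11% of all tested genes, the background for the other markers as well). Itgam was listed at 0 in every library. Schwann cell markers summed to 109 to 136 CPM at 24 h, against 92.3 to 102 CPM, with 4 of 7 above and none at 0 in all. Lymphocyte markers summed to 8.29 to 11.8 CPM at 24 h, against 3.67 to 8.23 CPM, with 1 of 10 above and Ms4a1 at 0 in all. The 24 h mean was higher for 5 of the 10. Skeletal muscle markers summed to 7.42 to 9.43 CPM, against 5.41 to 6.27 CPM, with 0 of 8 above, 6 higher in mean and Acta1 at 0 in all. The lymphocyte and muscle sums are low, since 3 counts of a single gene correspond to at least 0.516 CPM. Adrenergic markers summed to 3012 to 3345 CPM, against 3172 to 4012 CPM. Fibroblast, endothelial, adipocyte, hepatocyte, erythroid and adrenal cortex sums overlapped those of untreated tumours. Of the 24 h libraries, library 3 had the highest adipocyte and hepatocyte sums, 257 and 112 CPM. The part of these cell types in the result was not tested.

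**Figure D4:**
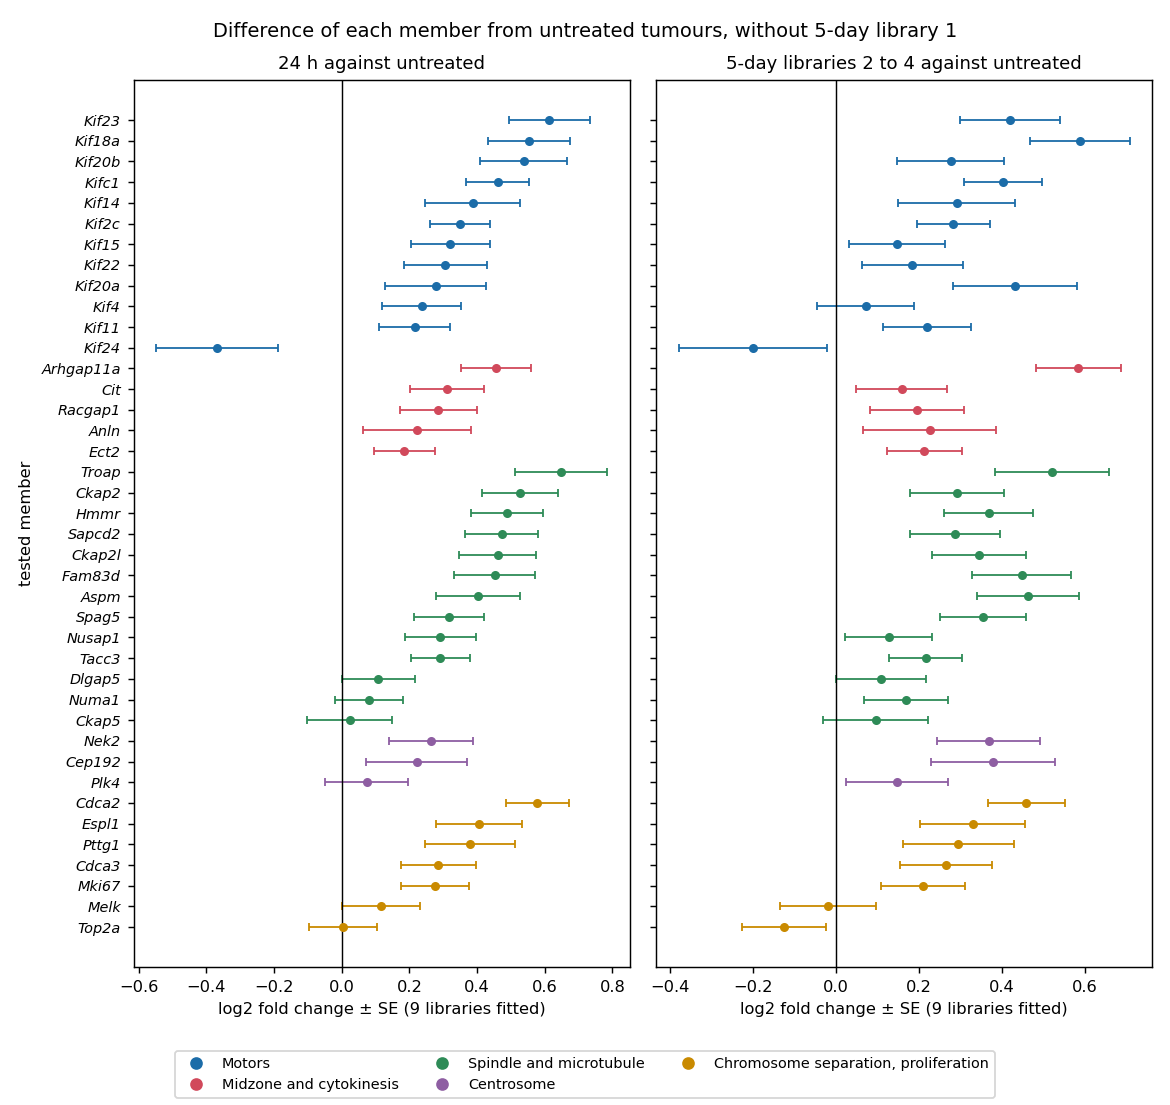
Log2 fold change ± SE of each tested gene (rows, coloured by role) at 24 h (left panel) and in 5-day libraries 2 to 4 (right panel), each against untreated tumours, from the fit of 9 libraries without 5-day library 1. The median is 0.31 at 24 h and 0.28 at 5 days, Kif24 is the only gene below 0 at 24 h, and both panels share the untreated libraries.

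The second question is how the genes stood after 5 days. The answer differed between 1 library and the other 3. The summed level was 7185, 7010 and 7718 CPM in 5-day libraries 2, 3 and 4 and 2845 CPM in library 1, against 6190, 6656 and 5821 CPM in untreated tumours. Library 1 was at 38.95% of the mean of libraries 2 to 4. In libraries 2 to 4, 23 of the 40 tested genes (57.5%) lay above all untreated libraries, against 6.64% of all tested genes. With library 1 included, 0 did (4.01% of all tested genes), since library 1 was below the other 9 libraries for 38 of the 40 (95%), against 38.1% of all tested genes, and above them for 0, against 37.8%. By Dixon's criterion for 4 samples, library 1 lay far below libraries 2 to 4 for 16 of the 40 (40%), against 3.3% of all tested genes, and far above them for 0, against 17.8%.

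Over all 10 libraries, edgeR's quasi-likelihood test called 0 genes at 5 days against untreated (0% of all tested genes) and 0 of the 40. At an unadjusted p under 0.05 it found 1257 genes (8.4%) and 0 of the 40, while DESeq2 called 21 genes and limma voom 0, none of them among the 40. The median log2 fold change of the 40 was 0.02 with all libraries and 0.28 without library 1, against 0.01 and -0.00 for all tested genes. The log2 fold change was below 0 for 18 of the 40 with all libraries (45%, against 49.4% of all tested genes) and for 3 without library 1 (7.5%, against 50.5%). Without library 1, 22 of the 40 (55%) were higher at an unadjusted p under 0.05, against 4.65% of all tested genes, and 0 were lower (3.86%), but 0 passed after adjustment. The lowest adjusted p there was 0.234 (edgeR, Arhgap11a).

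Of the 12 tested motors, 6 had 5-day libraries 2 to 4 above all untreated ones (50%, against 6.64% of all tested genes, the background for the other roles as well). Kif23 was at 160.4, 151 and 149.8 CPM in 5-day libraries 2 to 4 but 56.9 CPM in library 1, against 110.0 to 122 CPM in untreated tumours. Kifc1 was at 208, 199 and 244 CPM in libraries 2 to 4 and 61.3 CPM in library 1, against 156 to 171 CPM. In both genes libraries 2 to 4 lay above and library 1 below every untreated library. Kif2c, at 192, 173 and 197 CPM in libraries 2 to 4 and 56.5 CPM in library 1, against 152 to 157 CPM, had the same layout. So had Kif11, at 271, 249 and 273 CPM and 115 CPM, against 214 to 244 CPM.

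The other 2 motors named at 24 h overlapped the untreated range at 5 days. Kif20b was at 162, 128 and 149 CPM in 5-day libraries 2 to 4 and 58.7 CPM in library 1, against 113 to 134 CPM in untreated tumours. Kif24 was at 20.7, 20.6 and 22.4 CPM and 8.51 CPM, against 21.5 to 26.9 CPM, so that 2 of its libraries 2 to 4 were below the untreated range and 1 was within it. Kif18a, a motor that dampens chromosome oscillations on the spindle and was named after its values were seen, was at 75.0, 71.8 and 81.8 CPM and 20.7 CPM, against 45.1 to 55.7 CPM.

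In the midzone and cytokinesis group, 3 of 5 genes had 5-day libraries 2 to 4 above the untreated range (60%, against 6.64%). Arhgap11a was at 346, 324 and 349.6 CPM in 5-day libraries 2 to 4 and 124 CPM in library 1, against 214 to 241 CPM in untreated tumours. Its log2 fold change was 0.34 ± 0.31 (SE) over all libraries and 0.59 ± 0.10 without library 1. Racgap1 was at 249.8, 224 and 276 CPM and 101 CPM, against 207 to 224 CPM, and lay just clear of the untreated range in libraries 2 to 4. Ect2 was at 179.9, 167 and 189 CPM and 60.7 CPM, against 148 to 159 CPM, also clear of it. Cit was at 55.3, 63.7 and 69.5 CPM and 26.6 CPM, against 53.0 to 61.6 CPM, with overlap.

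Spindle and microtubule genes again held the largest share, 10 of 13 (76.9%, against 6.64%). Troap was at 77.4, 73.6 and 89.6 CPM in 5-day libraries 2 to 4 and 22.7 CPM in library 1, against 54.2 to 59.0 CPM in untreated tumours. Hmmr was at 203, 188 and 215 CPM and 74.4 CPM, against 153 to 161 CPM. Ckap2 was at 93.0, 88.3 and 85.5 CPM and 34.7 CPM, against 66.4 to 76.2 CPM. All 3 were above the untreated range in libraries 2 to 4 and below it in library 1. Tacc3, at 210.1, 198 and 244 CPM and 86.2 CPM, against 179 to 192 CPM, cleared that range by a narrow margin. Ckap5, at 281, 280.3 and 305 CPM and 157 CPM, against 238 to 311 CPM, did not clear it.

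Numa1 stood out for how little it differed in library 1. It was at 339, 346 and 353 CPM in 5-day libraries 2 to 4 and 285 CPM in library 1, against 303 to 315 CPM in untreated tumours. Its library 1 value was 0.823 of the mean of libraries 2 to 4, the highest ratio of the 40, and the lowest ratio was 0.253 for Sapcd2, a regulator of spindle orientation named after its values were seen. Numa1 and Cep192 were the 2 genes for which library 1 was not below all other libraries.

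The centrosome genes, which overlapped at 24 h, lay above the untreated range at 5 days in 2 of 3 cases (66.7%, against 6.64%). Cep192 was at 100.1, 99.8 and 114 CPM in 5-day libraries 2 to 4 and 67.2 CPM in library 1, against 63.1 to 99.5 CPM in untreated tumours. Nek2 was at 116, 117 and 141 CPM and 37.3 CPM, against 85.2 to 115 CPM. Both cleared the highest untreated library by a small margin. Plk4 was at 117, 108 and 131 CPM and 36.9 CPM, against 94.1 to 114 CPM, with overlap.

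Among the genes of chromosome separation and proliferation, 2 of 7 had 5-day libraries 2 to 4 above the untreated range (28.6%, against 6.64%). They were Cdca2, at 112, 109 and 115 CPM in 5-day libraries 2 to 4 and 36.2 CPM in library 1, against 80.3 to 83.2 CPM in untreated tumours, and Espl1, at 235, 214 and 246 CPM and 72.9 CPM, against 168 to 208 CPM. Pttg1 was at 47.4, 51.6 and 57.8 CPM and 23.6 CPM, against 35.1 to 50.4 CPM. Mki67 was at 857, 920.2 and 946 CPM and 345 CPM, against 688 to 910.4 CPM. Both overlapped the untreated range in libraries 2 to 4. Top2a was at 673, 652 and 667 CPM and 239 CPM, against 662 to 811 CPM, and its log2 fold change was -0.38 ± 0.32 (SE) over all libraries and -0.12 ± 0.10 without library 1. The Top2a means were thus not above the untreated mean at either time.

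Marker sums of other cells differed in 5-day libraries 2 to 4 as well. Schwann cell markers summed to 119, 133 and 107 CPM there, against 92.3 to 102 CPM in untreated tumours, so that every library was above, although 0 of 7 single markers were. Adrenergic markers summed to 2598 to 3404 CPM, against 3172 to 4012 CPM. Macrophage markers summed to 1117 to 1763 CPM there, against 643 to 1120 CPM in untreated tumours, with 2 of 16 markers above all untreated libraries (against 6.64% of all tested genes). Skeletal muscle markers summed to 11.7 to 522 CPM, against 5.41 to 6.27 CPM, with 4 of 8 above (against 6.64% of all tested genes) and Acta1 listed at 0 throughout. Sums of fibroblast, endothelial, adipocyte, hepatocyte, lymphocyte, erythroid and adrenal cortex markers overlapped the untreated range. The part of these cells in the result was not tested.

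The third comparison sets 5 days against 24 h. EdgeR called 0 genes (0% of all tested genes) and 0 of the 40, with 942 genes (6.3%) and 0 of the 40 at an unadjusted p under 0.05, while DESeq2 called 3 genes and limma voom 0. The median log2 fold change of the 40 was -0.31 over all libraries and -0.07 without 5-day library 1, so the difference between the times came with that library. Kif20b had the largest gap among the genes named by the rule for motors: it was at 162, 128 and 149 CPM in 5-day libraries 2 to 4 and 58.7 CPM in library 1, against 168, 152 and 204 CPM at 24 h. Its log2 fold change was -0.49 ± 0.30 (SE) over all libraries and -0.26 ± 0.13 without library 1 (edgeR, adjusted p = 0.581 and 0.66), and 1 of the 5-day libraries 2 to 4 lay within the 24 h range.

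Other genes of the cell cycle were set beside these genes. A list of 43 other mitotic genes (Aurora kinases, cyclins, kinetochore and checkpoint genes and the like), 42 of them tested, had 23 with 24 h libraries above all untreated ones (54.8%, against 7.11% of all tested genes) and a median log2 fold change of 0.29. In the same comparison a list of 32 S-phase genes, 30 of them tested, had a median of -0.09. Of the 30, 0 lay above and 3 below all untreated libraries (10% below, against 6.69% of all tested genes). Their log2 fold change over all 10 libraries was below 0 for 29 (96.7%, against 51.5% of all tested genes) and above 0 for 1. In 5-day libraries 2 to 4, 7 of the 30 lay below all untreated libraries (23.3%, against 7.49%) and 0 above (against 6.64%). At 5 days without library 1 the medians were 0.19 for the other mitotic genes and -0.04 for the S-phase genes. No member of either list passed over all 10 libraries. Of the other mitotic genes, Cep55, which recruits the membrane-cutting machinery to the midbody, was at 82.9, 75.8 and 80.7 CPM at 24 h, against 43.2, 49.2 and 43.7 CPM in untreated tumours, and it rose in the fit without 5-day library 1 (log2 fold change 0.82 ± 0.10 (SE), edgeR, adjusted p = 0.0297). Psrc1, a microtubule-binding partner of depolymerising kinesins, was at 126, 122 and 149.7 CPM, against 72.3, 67.6 and 62.0 CPM, and missed the threshold there (adjusted p = 0.077, edgeR, 3 of 3 libraries higher).

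Cdc25b, a phosphatase of mitotic entry, was at 76.5, 74.6 and 77.7 CPM at 24 h, against 63.2, 43.8 and 46.7 CPM in untreated tumours. Depdc1a, another gene of mitotic progression, was at 30.2, 24.1 and 30.7 CPM, against 18.7, 17.1 and 17.4 CPM. Both had no overlap. Among the S-phase genes, Cdc6, which loads the replicative helicase, was lower without overlap, at 34.2, 28.8 and 30.8 CPM, against 45.3, 56.7 and 42.7 CPM. Slbp, which binds histone messenger RNA, was at 84.8, 85.1 and 72.3 CPM, against 104, 89.0 and 81.9 CPM. Its groups overlapped. Orc6, of the complex that marks origins, was at 81.0, 96.9 and 92.9 CPM, against 102, 91.8 and 80.7 CPM. Gins3, a subunit of the active helicase, was at 10.2, 13.97 and 17.8 CPM, against 12.6, 19.4 and 12.7 CPM. Both overlapped as well.

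A ratio within each library does not depend on how libraries are scaled. Summed over genes, the 42 genes stood to the 32 S-phase genes as 1.88, 1.80 and 2.104 at 24 h and as 1.86, 1.92, 1.81 and 1.68 at 5 days, against 1.44, 1.54 and 1.46 in untreated tumours. All 7 treated libraries, 5-day library 1 included, were above all untreated ones. Leaving out Top2a and Mki67, the 2 most abundant genes, the ratios were 1.46, 1.38 and 1.66 at 24 h and 1.48, 1.51, 1.41 and 1.33 at 5 days, against 1.10, 1.14 and 1.12. Set against the adrenergic markers, the ratio was 2.39, 2.02 and 2.61 at 24 h and 3.10, 2.77, 2.06 and 2.48 at 5 days, against 1.54, 2.098 and 1.74, so that 24 h library 3 and 5-day library 3 lay within the untreated range. No p is given for these sums, because the genes were chosen with results of these libraries known.

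**Figure D5:**
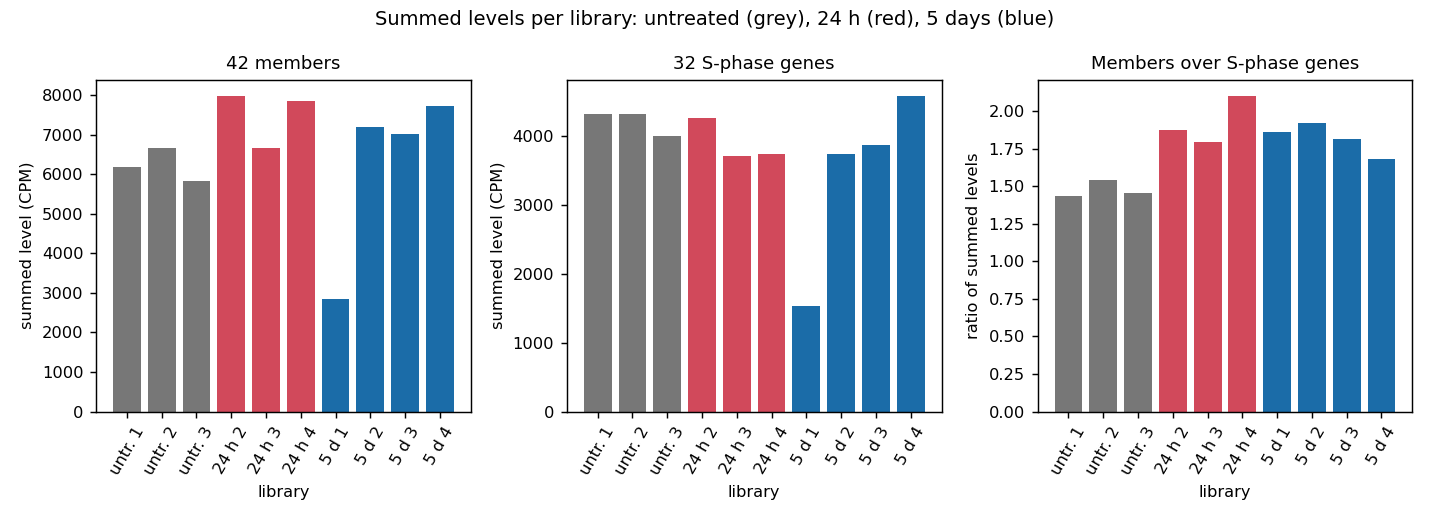
Summed level per library (CPM, y axes from 0) of the 42 genes (left) and of 32 S-phase genes (middle), and their ratio (right), in untreated (grey), 24 h (red) and 5-day (blue) libraries. In 5-day library 1 both sums are low, 2845 and 1526 CPM, while its ratio of 1.86 is among those of the other treated libraries.

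The genes were not all low to the same extent in 5-day library 1. Its S-phase genes were at 37.6% of the mean of 5-day libraries 2 to 4, close to the 38.95% of the 42 genes, and its adrenergic markers at 30.2%. By role, the share was 34.5% for motors, 37.9% for midzone and cytokinesis genes, 45.4% for spindle and microtubule genes, 40.6% for centrosome genes and 36.4% for chromosome separation and proliferation genes. Numa1 (0.823), Cep192 (0.642) and Ckap5 (0.542) had the highest ratios. Numa1 made up 285 of the 957 CPM of the spindle and microtubule genes in library 1, and 346 of 2106 CPM in the means of libraries 2 to 4. The share of that role thus leans on 1 gene, and a difference between roles was not tested. A smaller share of tumour cells in that library and less RNA of these genes per tumour cell cannot be told apart.

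The genes differ widely in level. Per kilobase of exon in untreated tumours, Top2a was highest at 80.3 ± 8.58 CPM per kilobase and Mki67 next at 78.0 ± 11.3 CPM per kilobase (SD, n = 3 each), and these neighbours did not differ beyond their spread. A clear step followed to Tacc3 at 52.6 ± 1.98, Kifc1 at 48.1 ± 2.12 and Arhgap11a at 42.5 ± 2.55 CPM per kilobase. The lowest were Kif18a at 5.15 ± 0.538, Cit at 3.43 ± 0.287 and Kif24 at 3.04 ± 0.336 CPM per kilobase. Of the 39 pairs of neighbours in this order, 11 were apart by more than the SD of either gene. Kif2c, the motor next below Kifc1, was at 35.2 ± 0.706 CPM per kilobase, and Kif11 at 30.5 ± 2.04 CPM per kilobase.

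Some values carry a limit of the counting. No source used here gives the strand setting of the counter, so reads of Kif4, Kif18a, Kif20a, Nusap1, Tacc3 and Numa1 cannot be told apart from reads of the protein-coding genes whose exons overlap them on the opposite strand (Pdzd11, Mettl15, Cdc23, Oip5, Tmem129 and Il18bp). Cdc23, with 6800 counts over all libraries against 8805 for Kif20a, is the largest of these. Prc1, at 0 counts, has the same kind of overlap with the protein-coding gene Rccd1, which had 1137 counts over all libraries. Kif18b, a plus-end depolymerising kinesin, and Prc1, the cross-linker of midzone microtubules, were listed at 0 in every library, as were the markers Itgam, Lipe, Acta1, Alas2 and Ms4a1. A listed 0 is therefore not read as absence of the RNA.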

How the data were processed

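Polyadenylated RNA of TH-MYCN tumours was sequenced in 10 libraries. The authors deposited 1 file per library with counts for each Ensembl gene. The fits took these as raw counts, and why the library totals lay within 2.1% of each other was not tested. Per the submitters' processing notes, reads were handled with HISAT2, TopHat2 2.1.1 and edgeR on build mm10, with no role stated. No source used here gives the counter or its strand setting. All columns matched a sample of the labels. Symbols, coordinates and exon lengths came from GENCODE release M21 for 54409 of 54446 identifiers (0.0041% of a library's counts at most fell on the rest).

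Tests used edgeR 4.0.16 in R 4.3.3: filterByExpr (minimum count 10, minimum total 15), TMM scaling (factor 0.812 for 5-day library 1, 1.001 to 1.039 for the others), 1 mean per group over all 10 libraries, the robust quasi-likelihood F test, and Benjamini-Hochberg adjustment over all tested genes with a threshold of 0.05. Adjusted p-values in the text come from this tool unless another is named. CPM use the scaled library size. SEs derive from the F statistic and, like SDs, include the spread among libraries. The limit for a count of 0 covers counting error only. Scripts were tested on simulated data. Promoter windows came from RefSeq (GRCm38.p6), matched by symbol.

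Alternatives were unscaled totals, DESeq2 1.42.0 and edgeR with DESeq2 size factors, no filter or a mean of at least 5 CPM, limma 3.58.1 voom with library weights, a block for the replicate number, a fit of just the groups compared, and each library left out in turn. The block without 5-day library 1, and the settings of the counts of non-overlapping genes, were added after seeing the data. Genes named in full were, per role, the 3 with the highest mean CPM and the 3 with the smallest unadjusted p against untreated, and of each other list up to 4 with the smallest unadjusted p. The genes, lists and rules were chosen with earlier results of these data known. Plots used matplotlib 3.10.9 under Python 3.11.15.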

Additional observations from a re-analysis of the deposited data

Results flagged for a closer look

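Within the 4 libraries of the 5-day group, library 1 lay farther from the other 3 than Dixon's criterion for 4 samples allows in several summed levels and single genes. Chance alone flags about 1 in 20 groups. The low sums in library 1 were those of all 42 genes (2845 CPM), of the midzone and cytokinesis genes (371 CPM), of the spindle and microtubule genes (957 CPM) and of the chromosome separation and proliferation genes (802 CPM). The high sums were those of macrophage markers (14957 CPM), fibroblast markers (18091 CPM) and adipocyte markers (8705 CPM).

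Of the 40 tested genes, 16 were flagged in this way (40%), all with library 1 as the low one, against 3.3% of all tested genes with library 1 far below and 17.8% with it far above. Among those named by the rule were the motors Kif11 (115 CPM), Kif23 (56.9 CPM) and Kif24 (8.51 CPM), the cytokinesis genes Ect2 (60.7 CPM) and Arhgap11a (124 CPM), and the spindle genes Ckap5 (157 CPM) and Ckap2 (34.7 CPM). The others named were Cdca2 (36.2 CPM), Top2a (239 CPM) and Mki67 (345 CPM). The flags share 1 library and are not independent of each other.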

How the results depend on the processing

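None of the 40 genes passed under any alternative run, in any of the 3 comparisons, and the 12 log2 fold changes recomputed for single genes kept their direction and their side of the threshold in all 228 values. They do not stand for all 40 genes: at 5 days 18 of the 40 were below 0 with all libraries and 3 without library 1. The count of all genes called moved from 0 to 21 (5 days against untreated) and 3 (5 days against 24 h) with DESeq2, and at 24 h to 7 with only the 2 compared groups and to 3 with voom; leaving out 1 library gave 0 to 2 at 24 h. The number of genes above all untreated libraries in the 5-day group was 0 with library 1 included. Leaving out 1 library moved the median log2 fold change of the 40 genes between 0.26 and 0.37 at 24 h. At 5 days it moved between -0.09 and 0.28, and for 5 days against 24 h between -0.45 and -0.07. The number above untreated can only stay or rise when a library is left out. It was between 22 and 33 at 24 h and, for 5-day libraries 2 to 4 alone, between 23 and 30. The share over all tested genes was not computed for these runs, so their counts have no background. With none of these libraries left out, the number was 22 at 24 h (55%, against 7.11% of all tested genes). For 5-day libraries 2 to 4 it was then 23 (57.5%, against 6.64%). At 5 days the sign of the median thus rests on the libraries included, with 0.28 without library 1 and -0.00 with unscaled totals.

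With the replicate number as a block, the median at 24 h was -0.0048; there the only partner of untreated library 1 is 5-day library 1, and without that library the blocked median was 0.33. At 5 days the blocked median was -0.20, against 0.02 without the block, and 0.25 with the block but without library 1. Whether the numbers pair the libraries cannot be told from these values. Deviations from the group means correlated at -0.395 to 0.247 for same-numbered libraries and at -0.549 to 0.487 for the others. Between 24 h and untreated tumours, same-numbered libraries correlated at 0.211 and 0.247, and the highest correlation of the others was 0.049. By counting error alone a count of 0 in 1 library allows up to 0.655 CPM, a limit not applied to genes listed at 0 in all libraries.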

Other observations

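The transport kinesins, which carry cargo along microtubules, were described in the same way. Of 26 listed and 25 tested, 1 had 24 h libraries above all untreated ones (4%, against 7.11% of all tested genes), and their median log2 fold change at 24 h was -0.03. Their summed level was 2870, 2646 and 2830 CPM at 24 h, against 2624, 3091 and 2828 CPM in untreated tumours. In 5-day library 1 they held 71.5% of the mean of libraries 2 to 4, against 38.95% for the 42 mitotic genes, and 7 of the 25 were above all other libraries there (28%, against 37.8% of all tested genes) and 11 below them (44%, against 38.1%). Kif1c, a motor of vesicle transport, was at 259 CPM in that library and 61.7, 28.7 and 23.3 CPM in 5-day libraries 2 to 4, against 19.6 to 36.1 CPM in untreated tumours. Kif21b, a motor known from neurons and lymphocytes, was at 59.3 CPM and 9.13, 4.30 and 3.38 CPM, against 1.92 to 3.68 CPM.

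Kif13a, a motor of endosomes, was at 80.3 CPM in 5-day library 1 and 79.4, 75.4 and 90.5 CPM in libraries 2 to 4, against 64.3 to 71.6 CPM in untreated tumours, so that all 4 of its 5-day libraries were above the untreated range. Kifc2 was at 9.16 CPM and 6.38, 5.85 and 3.55 CPM, against 2.96 to 5.603 CPM. None of these 4 genes passed the adjusted test (edgeR, all 10 libraries).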
